A study of Rattus norvegicus with 24 samples.

Results

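Quadriceps muscle of rats that trained on a treadmill after acupoint catgut embedding (catgut group 1) was compared with that of rats that trained without it (treadmill group). The comparison used 12 of the 24 sequenced libraries, 6 per group, and was described across all genes and across the KEGG pathways that the deposited table lists. Of 21067 genes in the table, 14772 had a mean of at least 0.1 FPKM over the 24 libraries and were tested. FPKM is the number of fragments per kilobase of transcript, scaled to the mapped fragments of the library, a level that allows for gene length and for depth.

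The animals were Sprague-Dawley rats of both sexes, 6 weeks old when obtained, with equal numbers of males and females in a group according to the methods. The treadmill group ran incremental treadmill training for 7 weeks and then ran to exhaustion. In catgut group 1, pieces of collagen thread were first placed with a needle under ether at Qiang Feng near the shoulder, at Bai Hui above the sacrum, and at Xie Qi, Qian Shen, Yang Wa and Han Gou, acupoints that lie in a groove of the thigh muscles of both hind limbs. These rats recovered for 1 week and then went through the same training and exhaustive run. No sham embedding is described for the treadmill group, so thread, needle, anaesthesia and acupoint cannot be told apart. A control group that was fed normally without training, and catgut group 2, which had the same acupoints plus Fei Shu, are given below only as levels. The labels give neither the sex of a rat nor the hour at which its muscle was taken.

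Several of the genes described below belong to the circadian clock, a feedback loop that runs in muscle fibres as in most cells. BMAL1 (gene Arntl) pairs with CLOCK or NPAS2 and switches on the Per and Cry genes, whose products then repress that pair, so that Arntl transcript peaks in roughly the opposite phase to Per2 transcript. The loop also drives output factors such as DBP and TEF. Glucocorticoids act on muscle through their receptor, induce Per1 and Tsc22d3 among other genes, and together with FoxO factors set the rate of protein breakdown and glutamine release.

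Total counts were 57292580 to 68040154 per treadmill library (median 60688147) and 45945938 to 66224903 per catgut 1 library (median 56332834.5). Correlations of log2(FPKM + 1) across genes were 0.967 to 0.987 within the treadmill group, 0.977 to 0.987 within catgut group 1 and 0.972 to 0.988 between them. The labelled tissue held its markers. Acta1, skeletal actin, was at 27683 to 35310.4 FPKM in the treadmill libraries and 22811 to 33313 in the catgut 1 libraries, and the summed level of 14 skeletal muscle markers was 119339 to 149550 and 105656 to 145189 FPKM, respectively. Y-linked transcripts were above 1 FPKM in replicates 4, 5 and 6 of both groups and under it in the other 3. Liver transcripts stood out in treadmill replicates 3 and 2, with a summed level of 522 and 66.8 FPKM over 28 liver markers against 14.3 to 22 in the other 10 libraries of both groups. Results that rest on these libraries are given with and without them.

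Differentially expressed genes (DEGs) were genes whose mean FPKM differed more than 1.5-fold in either direction, with a p under 0.05 before adjustment. By this criterion 461 genes (3.12% of those tested) differed between catgut group 1 and the treadmill group. Of them, 167 (1.13%) were higher and 294 (1.99%) were lower in catgut group 1. The p-values came from edgeR's quasi-likelihood test. Without treadmill replicates 2 and 3, 275 genes were higher and 174 lower, so the balance of directions turned with these 2 libraries. Leaving out treadmill replicate 2 alone gave 263 higher and 229 lower DEGs. At an unadjusted p under 0.05, 508 genes (3.44%) were higher and 516 (3.49%) lower, 1024 in all, where 739 are expected by chance. After Benjamini-Hochberg adjustment 7 genes (0.0474%) were under 0.05. In 44 genes (0.298%) each catgut 1 library was above each treadmill library, and in 17 genes (0.115%) each was below.

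**Figure D1:**
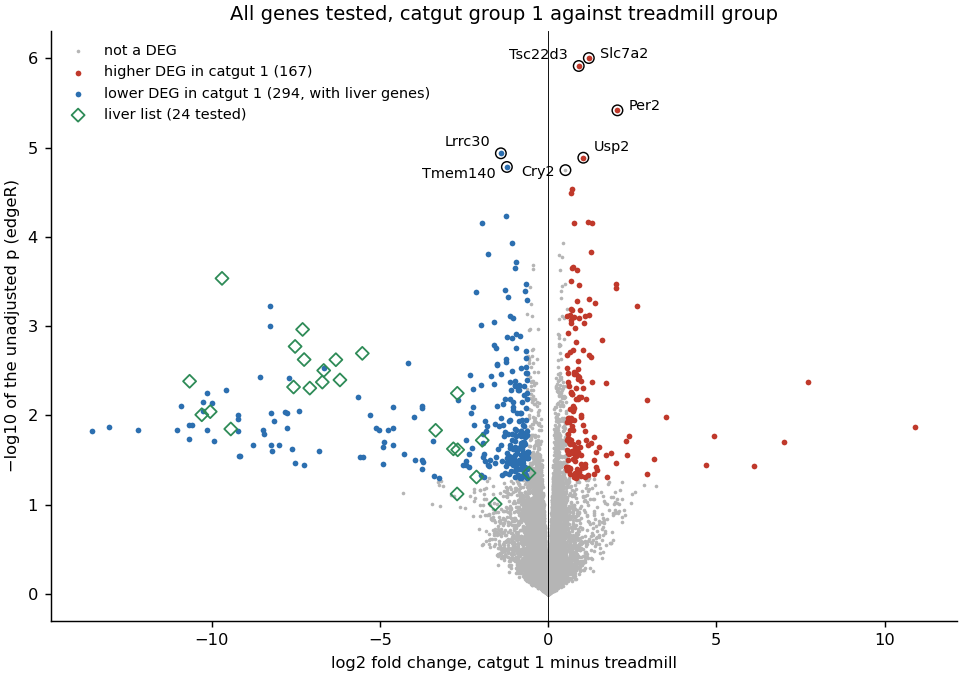
Each point is 1 of the 14772 genes tested, with the log2 fold change of catgut group 1 minus treadmill group on the x axis and the −log10 of the unadjusted edgeR p on the y axis. Red points are the 167 higher DEGs, blue points the lower DEGs, green diamonds the 24 tested genes of the liver list, and the 7 circled and named genes had an adjusted p under 0.05. The liver genes reach a log2 fold change of -10.65, while the named genes lie between -1.40 and 2.06.

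The smallest p-values belonged to genes of the clock, of the glucocorticoid response and of amino acid uptake, and to a pair of less studied genes. Of the 7 genes with an adjusted p under 0.05, 5 were higher in catgut group 1: Slc7a2, a transporter of arginine and other cationic amino acids, Tsc22d3, a glucocorticoid-induced leucine zipper protein known as GILZ, Per2 and Cry2, repressors of the clock, and Usp2, a deubiquitinase under clock control. The other two, Lrrc30 and Tmem140, were lower. In each of the 7 the catgut 1 and treadmill libraries did not overlap. In bulk muscle, fewer cells of a type and less RNA per cell cannot be told apart.

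Slc7a2 (chr16:54460067-54513349 in the table) was at 2.02 to 3.47 FPKM in the treadmill libraries (median 2.59) and at 4.44 to 9.08 in the catgut 1 libraries (median 5.84). Its highest catgut 1 value was in replicate 5. The log2 fold change was 1.21 ± 0.141 (SE, n = 6 per group), with an adjusted p of 0.00901 by edgeR's quasi-likelihood test and Benjamini-Hochberg adjustment. Tsc22d3 (chrX:111884295-111887906) was at 47.6 to 71.4 FPKM (median 59.3) against 94.1 to 133 (median 121), so it nearly doubled, and its log2 fold change was 0.91 ± 0.108, again at an adjusted p of 0.00901. For both genes, the adjusted p stayed under 0.05 in each of the 12 fits that left out 1 library, at 0.00595 to 0.0395 for Slc7a2 and 0.0116 to 0.0409 for Tsc22d3. Without treadmill replicates 2 and 3 together, Slc7a2 was the only 1 of the 7 genes that kept an adjusted p under 0.05. The same held when the level of the liver markers entered the fit, so Tsc22d3 and Per2 lost it in both fits.

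Per2 (chr9:98555169-98597359) showed the largest fold of the 7. It was at 1.03 to 2.99 FPKM in the treadmill libraries (median 2.15) and 6.69 to 13.4 in the catgut 1 libraries (median 8.16), with a ratio of means of 4.28. Its log2 fold change was 2.06 ± 0.271 (adjusted p = 0.0188). Usp2 (chr8:48406260-48430885) was at 13.3 to 24.4 FPKM (median 16) against 32.4 to 41.5 (median 36.3), a log2 fold change of 1.05 ± 0.154 (adjusted p = 0.0377). Cry2 (chr3:81314149-81344110) moved less, from 9.19 to 11.2 FPKM (median 10.1) to 12.9 to 17 (median 15.3). Its ratio of means was 1.46, under the study's limit of 1.5, and its log2 fold change was 0.52 ± 0.0785 (adjusted p = 0.0377).

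Lrrc30 (chr9:115849732-115850634), which encodes a leucine-rich repeat protein, was at 19.4 to 25.3 FPKM in the treadmill libraries (median 23.6) and 4.97 to 14.6 in the catgut 1 libraries (median 8.84). It fell by 1.40 ± 0.205 on the log2 scale (adjusted p = 0.0377). Tmem140 (chr4:62380914-62391912), a gene for a transmembrane protein, was at 20.9 to 40.3 FPKM (median 30.7) against 8.53 to 18.7 (median 12.6) and fell by 1.22 ± 0.185 (adjusted p = 0.0377). With 1 library left out, the 7 genes kept their direction in each fit, but 5 of them did not keep an adjusted p under 0.05 throughout. Per2 lost it without treadmill replicate 3 or 6. Usp2 and Cry2 kept it only without treadmill replicate 5, Lrrc30 only without catgut 1 replicate 5 or 6, and Tmem140 only without catgut 1 replicate 2. The two-sided exact permutation test over all arrangements of the 12 libraries gave 0.00216 for each of the 7, the smallest p that it can give. Groups without overlap always give this value, so it repeats the lack of overlap and adds no support. After adjustment over all genes tested, the permutation p was 0.524 for each of the 7.

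**Figure D2:**
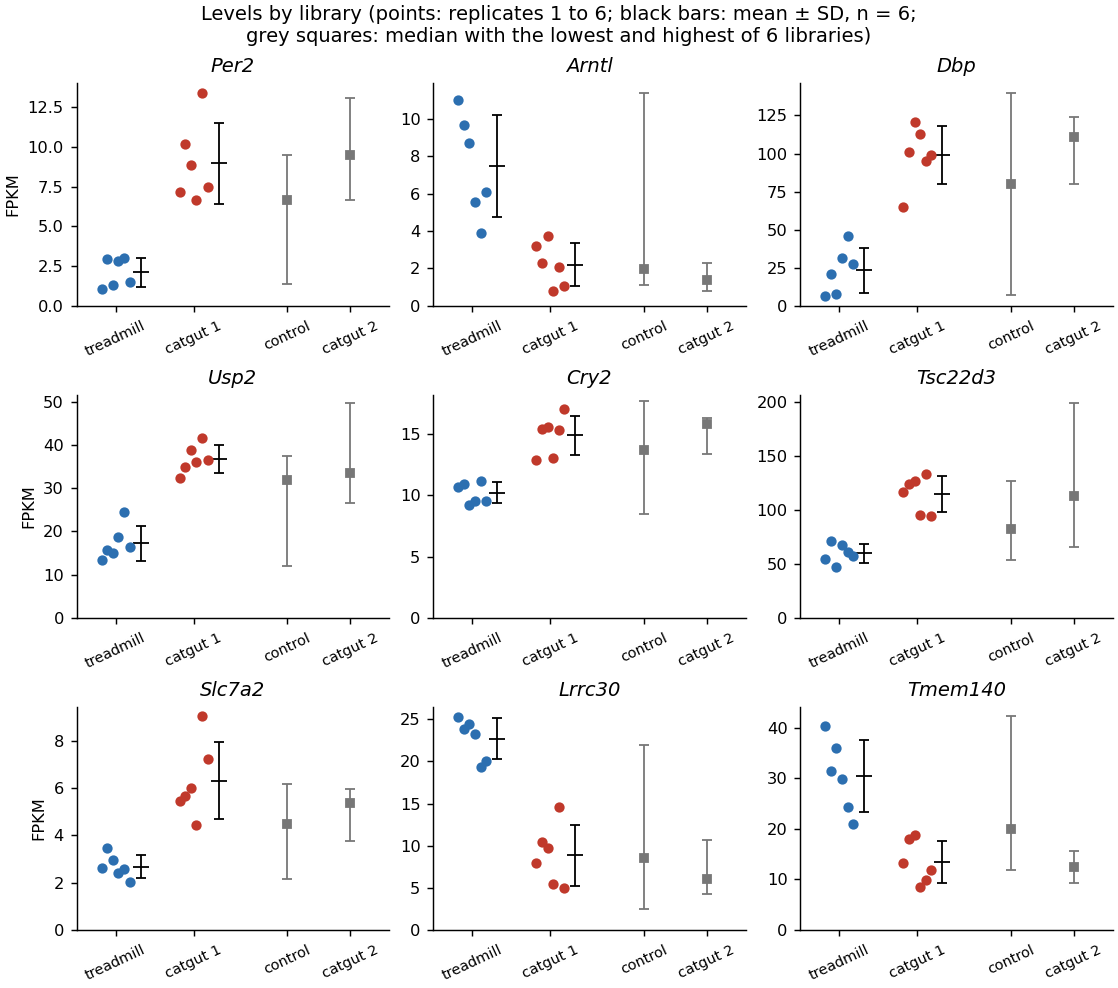
FPKM is on the y axis of each panel and the groups are on the x axis, with 1 point per library for the treadmill (blue) and catgut 1 (red) groups, black bars for mean ± SD, and grey squares for the median of the control and catgut 2 groups with their lowest and highest library. In all 9 genes the 6 catgut 1 points lie to 1 side of the 6 treadmill points, above them for Per2, Dbp, Usp2, Cry2, Tsc22d3 and Slc7a2 and below them for Arntl, Lrrc30 and Tmem140.

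The gene lists read below were chosen with earlier results of these data known, so their shares are descriptions only. Within the core clock loop, 7 of 18 tested members were DEGs (38.9%, against 3.12% of all genes tested), 5 higher and 2 lower. The higher members were the repressors Per1, Per2 and Per3, Ciart, which represses the BMAL1 pair, and Nr1d2, the nuclear receptor REV-ERB beta that represses Arntl. The lower members were Arntl and Npas2, a pair of activators of the loop, while Clock, the other partner of BMAL1, was not a DEG. The counts were again 5 and 2 without treadmill replicates 2 and 3, and with any 1 library left out 4 to 7 members were higher and 2 lower.

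Arntl was at 3.88 to 11 FPKM in the treadmill libraries (median 7.41) and at 0.804 to 3.75 in the catgut 1 libraries (median 2.18). The groups did not overlap, and the log2 fold change was -1.80 ± 0.342 (adjusted p = 0.123). Npas2 was lower still, at 0.402 to 1.66 FPKM (median 1.2) against 0.054 to 0.589 (median 0.215), and fell by 2.15 ± 0.457 on the log2 scale (adjusted p = 0.15), with 5 of 6 catgut 1 libraries under every treadmill library. Ciart went the other way without overlap, from 0.459 to 5.53 FPKM (median 2.6) to 9.09 to 13.2 (median 11.6), a log2 fold change of 2.00 ± 0.416 (adjusted p = 0.149). Per3 was also without overlap, at 0.911 to 2.87 FPKM (median 2.12) and 3.37 to 5.28 (median 4.36), with a log2 fold change of 1.09 ± 0.251.

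Per1 and Nr1d2 overlapped between the groups. Per1 was at 3.99 to 18.6 FPKM (median 13.6) against 15.2 to 35.7 (median 24.1), with 4 of 6 catgut 1 libraries above every treadmill library. Nr1d2, at 6.38 to 22.5 (median 11.2) and 13.7 to 27.9 (median 18.7), was no longer a DEG without treadmill replicate 3, treadmill replicate 4 or catgut 1 replicate 3. Members that were not DEGs include the partners and brakes of the same loop. Clock was at 0.218 to 2.41 FPKM against 0.269 to 1.61, Cry1 at 3.81 to 8.02 against 4.46 to 7.32, and Nr1d1, the other REV-ERB, at 33 to 76.1 against 32.6 to 64.5, with log2 fold changes of -0.42 ± 0.695, -0.07 ± 0.163 and -0.26 ± 0.2.

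The ratio of Per2 to Arntl FPKM sets both arms of the loop against each other within a library. Per2 and Arntl moved in opposite directions without overlap between the treadmill and catgut 1 groups, so the ratio had to separate these groups. It restates those values and adds no support to them. The ratio was 0.0935 to 0.769 (median 0.274) in the treadmill libraries and 2.22 to 8.32 (median 5.46) in the catgut 1 libraries. Per2 thus exceeded Arntl in 6 of 6 catgut 1 libraries and in 0 of 6 treadmill libraries. It did so in 4 of 6 control libraries, whose ratio ran from 0.122 to 7.71, and in 6 of 6 catgut 2 libraries, at 3.73 to 12.5. The control libraries therefore lay on both sides of 1. The part of the hour of collection in these differences was not tested, since the labels do not give it.

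The promoters of called clock and glucocorticoid genes were read for the letters that clock factors and nuclear receptors are known to bind. Shown are 5 examples picked among the genes with such letters, and the others with a match are named below. Sequences are RefSeq promoters of the GRCr8 build, from 250 bases before to 50 bases after the gene start, written along the gene's strand. Capitals mark an E-box (CACGTG, bound by BMAL1 pairs) in Ciart, Klf15 and Tef, a D-box (TTATGTAA, bound by DBP and TEF) in Per2, and the letters AGGTCA (the core of the elements that REV-ERB and ROR receptors bind) in Arntl, which RefSeq lists as Bmal1. They lie at chr2:186112197-186112496 (minus strand) for Ciart, chr4:124522765-124523064 (plus strand) for Klf15, chr7:115206577-115206876 (plus strand) for Tef, chr9:99496944-99497243 (minus strand) for Per2 and chr1:176766078-176766377 (plus strand) for Arntl.
Ciart: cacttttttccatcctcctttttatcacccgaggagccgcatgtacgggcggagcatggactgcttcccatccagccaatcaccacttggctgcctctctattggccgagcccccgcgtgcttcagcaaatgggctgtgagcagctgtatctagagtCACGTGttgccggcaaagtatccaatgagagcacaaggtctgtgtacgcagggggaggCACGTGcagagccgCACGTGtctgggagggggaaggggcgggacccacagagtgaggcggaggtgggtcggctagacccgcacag
Klf15: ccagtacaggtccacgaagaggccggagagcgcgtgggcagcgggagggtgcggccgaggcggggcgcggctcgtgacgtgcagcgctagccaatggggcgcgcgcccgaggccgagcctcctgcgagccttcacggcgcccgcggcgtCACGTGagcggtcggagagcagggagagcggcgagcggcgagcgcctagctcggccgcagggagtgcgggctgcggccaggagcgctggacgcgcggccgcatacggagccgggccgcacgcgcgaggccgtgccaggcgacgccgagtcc
Tef: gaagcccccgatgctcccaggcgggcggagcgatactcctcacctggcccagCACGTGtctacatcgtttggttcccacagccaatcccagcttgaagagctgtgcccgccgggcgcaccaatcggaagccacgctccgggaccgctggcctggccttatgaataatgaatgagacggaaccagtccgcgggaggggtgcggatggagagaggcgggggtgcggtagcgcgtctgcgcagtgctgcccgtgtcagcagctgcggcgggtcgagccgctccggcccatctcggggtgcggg
Per2: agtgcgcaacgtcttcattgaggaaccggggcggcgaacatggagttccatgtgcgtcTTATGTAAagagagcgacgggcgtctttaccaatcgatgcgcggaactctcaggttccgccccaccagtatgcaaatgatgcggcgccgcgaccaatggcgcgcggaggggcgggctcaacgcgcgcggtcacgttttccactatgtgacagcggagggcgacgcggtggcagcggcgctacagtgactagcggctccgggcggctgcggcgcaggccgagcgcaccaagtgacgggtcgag
Arntl: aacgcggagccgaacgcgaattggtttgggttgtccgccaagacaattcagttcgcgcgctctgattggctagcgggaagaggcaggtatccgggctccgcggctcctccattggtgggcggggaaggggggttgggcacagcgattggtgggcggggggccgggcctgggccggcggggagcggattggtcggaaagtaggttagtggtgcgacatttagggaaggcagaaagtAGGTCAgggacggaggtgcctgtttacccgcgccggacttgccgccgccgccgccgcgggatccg

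Ciart, higher in catgut group 1 in every library, held 3 E-boxes, at 93, 35 and 21 bases before the start. Klf15 held 1 at 101 bases and Tef 1 at 198 bases before the start, while the D-box of Per2 began 192 bases and the AGGTCA of Arntl 15 bases before it. Of 20 called genes of these lists, 17 were matched to RefSeq, with 20 promoters, and both strands were searched. An E-box was found in 3 genes, a D-box in 2 (Per2 and Coq10b), AGGTCA in 4 (Arntl, Nr1d2, Ucp3 and Usp2), and AGAACA, which is part of the element that the glucocorticoid receptor binds, in 0. Among all 33469 promoters of the table, 6.42% held CACGTG, 0.893% TTATGTAA, 16.2% AGGTCA and 20.7% AGAACA. A match of letters describes a sequence and does not show binding.

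Of 15 tested genes of clock output, 6 were higher DEGs and 1 was a lower DEG (46.7%, against 3.12% of all genes tested). Counts were again 6 and 1 without treadmill replicates 2 and 3, and 6 to 7 members were higher with any 1 library left out. Dbp, an activator that the BMAL1 pair drives directly, was at 6.54 to 46.1 FPKM in the treadmill libraries (median 24.1) and 65 to 121 in the catgut 1 libraries (median 99.9). Its ratio of means was 4.25 and its log2 fold change 2.02 ± 0.426, with no overlap but an adjusted p of 0.149. Tef, its relative in the PAR bZIP family, was at 22.6 to 44.6 FPKM (median 33.4) against 46.1 to 69 (median 56.9), also without overlap (0.76 ± 0.175).

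Coq10b, which takes part in coenzyme Q function in mitochondria, was at 2.43 to 13.6 FPKM (median 4.99) against 8.76 to 27.5 (median 14.6), with 4 of 6 catgut 1 libraries above every treadmill library. Wee1, a kinase that holds back entry into mitosis and a known clock target, was at 2.29 to 4.66 (median 2.93) against 3.74 to 9.31 (median 5.33). The lower member was Ucp3, the uncoupling protein of muscle mitochondria, at 89 to 231 FPKM (median 114) against 18 to 95.3 (median 42.9). It fell by 1.56 ± 0.398 on the log2 scale (adjusted p = 0.269), and 5 of 6 catgut 1 libraries were under every treadmill library. Pdk4, the kinase that closes pyruvate dehydrogenase, was at 186 to 681 FPKM against 162 to 467, with a log2 fold change of -0.46 ± 0.315.

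Among 30 tested glucocorticoid and FoxO targets, 7 were higher DEGs and 0 were lower (23.3% against 3.12% of all genes). The median log2 fold change of the list was 0.38, against -0.011 over all genes tested, and 24 of 30 members were positive. With treadmill replicates 2 and 3 left out, 10 were higher and 0 lower, and the median was 0.49. Leaving out treadmill replicate 2 alone gave 11 higher. Of its called members, Per1 and Klf15 are also in the lists of the clock.

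Klf15, a glucocorticoid-induced factor that drives amino acid breakdown in muscle, was at 11.3 to 22.8 FPKM (median 15.1) in the treadmill libraries and 19.6 to 31.1 (median 25.2) in the catgut 1 libraries. In 5 catgut 1 libraries the value was above the highest treadmill value, which belonged to replicate 2, and the log2 fold change was 0.70 ± 0.112 (adjusted p = 0.0529). Glul, glutamine synthetase, was at 258 to 443 FPKM (median 376) against 507 to 765 (median 586), without overlap (0.69 ± 0.142, adjusted p = 0.149). Ddit4, an inhibitor of mTORC1 also known as REDD1, was at 5.49 to 12.6 FPKM (median 8.58) against 12.4 to 30.2 (median 17.7), and its log2 fold change was 1.07 ± 0.251. The remaining called members were Cebpd (1.03 ± 0.265), Per1 (0.98 ± 0.329), Tsc22d3 and Zbtb16 (0.70 ± 0.245, no longer a DEG without catgut 1 replicate 1).

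Other members of the glucocorticoid and FoxO list did not pass the criterion. At an unadjusted p under 0.05, 9 of 30 members were higher and 1 was lower, against 3.44% and 3.49% of all genes tested. Some members therefore missed only the fold limit. Fkbp5, which dampens the glucocorticoid receptor, was at 8.12 to 18.3 FPKM against 9.14 to 34, a log2 fold change of 0.53 ± 0.34 (unadjusted p = 0.142, adjusted p = 0.855). Klf9 was at 9.24 to 18.1 against 9.86 to 22.3 (0.37 ± 0.155), and Bnip3, a mitophagy receptor, at 198 to 306 against 277 to 411 (0.36 ± 0.0946). Lpin1, a phosphatidate phosphatase, was the member with the most negative value, at 18.6 to 28.5 FPKM against 10.5 to 20.2 (-0.61 ± 0.159), and its ratio of 0.675 did not reach the fold limit.

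**Figure D3:**
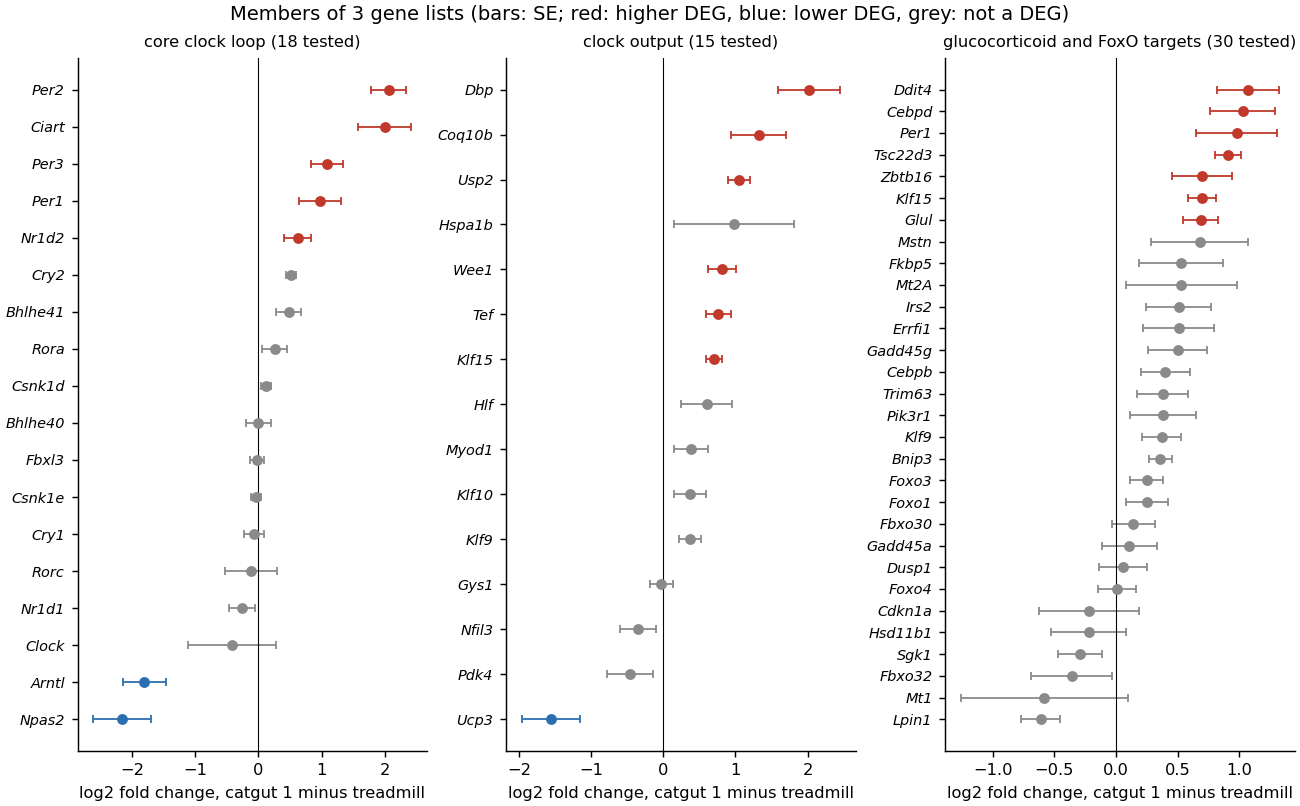
Log2 fold changes of catgut group 1 minus treadmill group are on the x axis, with bars for the SE, for the 18, 15 and 30 tested members of the core clock loop, clock output and glucocorticoid and FoxO lists. Red members are higher DEGs, blue ones lower DEGs and grey ones neither. Values run from -2.15 for Npas2 to 2.06 for Per2 in the core loop, and 24 of 30 glucocorticoid and FoxO targets lie right of 0.

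Of 25 amino acid transporters tested, 3 were DEGs (12%, against 3.12% of all genes), and each was higher, against 1.13% of all genes: Slc7a2, Slc7a8 and Slc7a6, which belong to 1 transporter family. Slc7a8, an exchanger of neutral amino acids, was at 2.15 to 3.21 FPKM (median 2.76) against 3.46 to 4.95 (median 4.08), without overlap (0.58 ± 0.14). Its ratio of 1.53 lay near the limit, and the call was lost without treadmill replicate 1 or 3 or catgut 1 replicate 5 or 6. Slc7a6 was at 3.14 to 5.93 (median 4.53) against 4.29 to 13.4 (median 6.44) and was no longer a DEG without catgut 1 replicate 5, its highest library. Without that library 1 transporter was a higher DEG, and without treadmill replicates 2 and 3 together 2 were. The other 22 transporters were not DEGs, and the median of the list was 0.00.

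Outside the lists, the most significant higher DEGs included Ifrd1, Zfp503, Ggta1, Atp8a1, Cep85l, Mbd4 and Pdp1. Ggta1, which makes the alpha-galactose epitope on glycoproteins, was at 3.39 to 5.54 FPKM (median 4.46) against 6.87 to 18.5 (median 10.2), a log2 fold change of 1.31 ± 0.229 (adjusted p = 0.0747). Pdp1, the phosphatase that opens pyruvate dehydrogenase and so opposes Pdk4, was at 14.7 to 24.5 FPKM (median 18.6) against 24.8 to 40.3 (median 30), a log2 fold change of 0.72 ± 0.143 (adjusted p = 0.126). Neither gene overlapped between the groups, and the same held for Atp8a1, a phospholipid flippase, Cep85l, a centrosomal protein, and Mbd4, a DNA glycosylase.

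Atp8a1 was at 2.72 to 4.68 against 5.14 to 9.45 FPKM, Cep85l at 0.74 to 1.92 against 2.09 to 4.68, and Mbd4 at 1.93 to 3.12 against 3.61 to 5.25, with log2 fold changes of 0.76, 1.28 and 0.74. Ifrd1, a transcriptional co-regulator of muscle differentiation, was at 16.9 to 30.6 FPKM (median 19.2) against 27.7 to 39.8 (median 31.8), with 3 of 6 catgut 1 libraries above treadmill replicate 2. Zfp503, a zinc finger protein, was at 2.83 to 7.03 (median 3.4) against 6.71 to 11.2 (median 9.55). The adjusted p of Zfp503 was 0.0747. With 1 library left out it was under 0.05 only without treadmill replicate 4, its highest treadmill library. Removal of that library had to widen the difference, so this fit adds no support.

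Behind Lrrc30 and Tmem140 in order of p, the next lower DEGs were Col5a3, Nrip2, Relt, Arntl, Cd93, Tnfaip3, Alb, Sphk2, Foxs1 and Ankrd23. Ankrd23, a titin-binding ankyrin repeat protein of the sarcomere, was the most abundant of them, at 1346 to 2168 FPKM (median 1687) against 950.4 to 1261 (median 1030.1). The groups did not overlap, and it fell by 0.69 ± 0.148 on the log2 scale (adjusted p = 0.15). Its ratio of 0.633 was near the limit, and it was no DEG without treadmill replicate 6. Col5a3, a chain of type V collagen, was at 2.7 to 7.66 FPKM (median 4.88) against 1.35 to 3.14 (median 1.81), and fell by 1.24 ± 0.213 on the log2 scale (adjusted p = 0.0747). Cd93, a receptor of endothelial cells, was at 4.96 to 10.1 (median 6.75) against 1.78 to 5.41 (median 3.84), with 5 of 6 catgut 1 libraries under every treadmill library.

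Tnfaip3, the ubiquitin-editing inhibitor A20 of NF-kappaB signaling, was at 1.81 to 3.77 FPKM against 0.879 to 1.93, and Relt, a receptor of the TNF receptor family, at 8.53 to 18 against 4.89 to 8.67. The groups overlapped slightly in both genes, with log2 fold changes of -0.97 ± 0.193 and -1.06 ± 0.196. Sphk2, a sphingosine kinase, was at 6.6 to 7.47 FPKM (median 6.92) against 3.29 to 6.21 (median 4.6) without overlap and fell by 0.65 ± 0.136. That call was lost without catgut 1 replicate 4 or 6. Nrip2 and Foxs1 were also without overlap, at 0.507 to 1.22 against 0.128 to 0.361 FPKM and at 1.43 to 3.5 against 0.594 to 1.25.

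Liver markers were lower in catgut group 1. Of 24 tested liver markers, 21 were lower DEGs (87.5%, against 1.99% of all genes tested), with a median log2 fold change of -6.49. Of these markers 0 had an adjusted p under 0.05. A marker near 0 in most libraries could pass the filter on mean FPKM through a few high treadmill or control libraries. The filter therefore favoured markers high in those libraries, and the share is a description only. The summed level of the list was 17.3 to 522 FPKM in the treadmill libraries (median 21.2) and 14.3 to 17.2 in the catgut 1 libraries (median 15.6), and 7 of its 28 genes were at 0 in every catgut 1 library. Treadmill replicate 3 held 522 and replicate 2 66.8 FPKM, against 17.3 to 22 in the other 4. Without treadmill replicate 3, 15 liver markers were lower DEGs, and without replicates 2 and 3 together 7 were, with a median of -1.83. Skeletal muscle fibres do not normally express this set, and the part of carried-over liver RNA in these values was not tested.

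Alb, the serum albumin gene, was at 0.283 to 226 FPKM in the treadmill libraries (median 2.72) and at 0 to 0.0812 in the catgut 1 libraries (median 0.0482), without overlap. Since each catgut 1 library was at or under the limit of detection of 12 counts (3 fragments), the difference was at least 424-fold, at least 37.9-fold without treadmill replicate 3 and at least 16.6-fold without replicates 2 and 3. Fabp1, a fatty acid binding protein of liver, was at 0.163 to 35.1 FPKM (median 0.344) against 0.0573 to 0.23 (median 0.102). It was at least 15.6-fold lower with all treadmill libraries and at least 1.54-fold lower without replicate 3, and without replicates 2 and 3 its treadmill mean was itself under the limit. Apoc3, an apolipoprotein that slows clearance of triglyceride-rich particles, was at 0 to 18.6 FPKM (median 0.562) against 0 to 0.0978, with 5 catgut 1 libraries at 0. Its bound was 11.7-fold with replicate 3 and 1.78-fold without it, and without replicates 2 and 3 its treadmill mean was at the limit, so that no fold is given. Ttr, transthyretin, was at 0 to 23.1 FPKM (median 0.912) in the treadmill group and at 0 in the 6 catgut 1 libraries, at least 15.9-fold lower, or 2.79-fold without replicate 3 and 1.8-fold without replicates 2 and 3. These bounds cover counting error only and not the spread between libraries. By edgeR's quasi-likelihood test the adjusted p was 0.149 for Alb, 0.262 for Apoc3 and 0.285 for Fabp1.

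Slc27a2, a liver fatty acid transporter and acyl-CoA synthetase, was at 0 to 1.24 FPKM (median 0.15) against 0 to 0.166 (median 0.0246) and was not a DEG (unadjusted p = 0.0759, adjusted p = 0.784). By the same measure Lpl, the lipoprotein lipase that muscle and fat use to take up fatty acids, was the abundant gene of this group. It was at 27.8 to 88.1 FPKM (median 38.9) against 37 to 144 (median 61.3), with a ratio of means of 1.55 and a log2 fold change of 0.58 ± 0.379. The groups overlapped widely, and Lpl was not a DEG (unadjusted p = 0.153, adjusted p = 0.872).

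**Figure D4:**
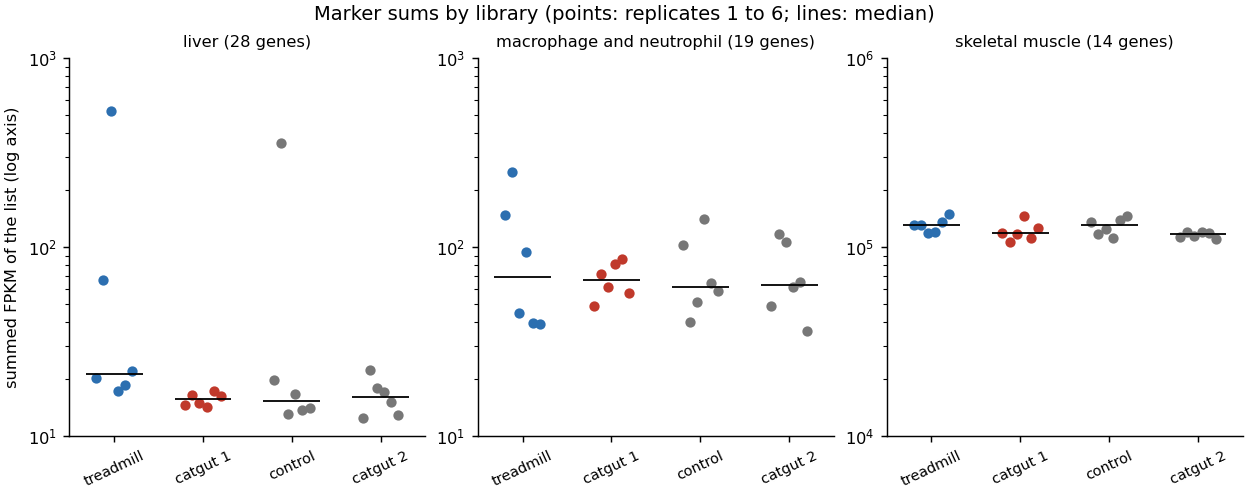
The summed FPKM of 28 liver, 19 macrophage and neutrophil and 14 skeletal muscle markers is on a log y axis for each library of the 4 groups, with lines at the medians. The liver sum reaches 522 FPKM in treadmill replicate 3 and 354 in a control library, while the 6 catgut 1 libraries lie between 14.3 and 17.2. The muscle sum stays between 105656 and 149550 FPKM in the treadmill and catgut 1 libraries.

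Genes of the fatty acid fuel switch, which turns muscle from glucose to fat, gave 2 lower DEGs of 36 tested (5.56%), Ucp3 and Ucp2, and 0 higher, where 1.99% of all genes were lower. Ucp2 was at 4.43 to 24.5 FPKM (median 11) against 4.74 to 8.88 (median 7.06) and was not a DEG without treadmill replicate 1. Angptl4, an inhibitor of lipoprotein lipase, was at 3.56 to 25.4 against 2.5 to 13.1 (-1.05 ± 0.536, unadjusted p = 0.0725). Of 21 lipogenic genes, 1 was higher and 1 lower (9.52%, against 3.12% of all genes). Dgat2, which makes triglyceride, was at 5.62 to 22.4 FPKM (median 11.4) against 14.5 to 42.7 (median 21.7), but its call held in only 4 of the 12 fits with 1 library left out. Scd, the stearoyl-CoA desaturase, was scarce, at 0.239 to 0.394 against 0.133 to 0.32.

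Among 27 genes of glucose uptake and glycolysis, 1 was a lower DEG (3.7%, near the share over all genes), Pfkfb3, which makes the activator of phosphofructokinase. It was at 18.2 to 71.8 FPKM (median 48.3) against 11.1 to 60 (median 20), and its call held in 5 of the 12 fits with 1 library left out. Immediate-early genes, which contraction induces within minutes, gave 2 lower DEGs of 34 (5.88%, against 1.99% of all genes), Dusp10 and Ier2. They gave 0 without treadmill replicates 2 and 3. Ier2 was at 43.2 to 60.6 FPKM (median 54.4) against 19.1 to 44.9 (median 33.8), and its call held in 7 of the 12 fits. Dusp10, a MAP kinase phosphatase, was at 11.5 to 27.8 against 7.5 to 14.8, a call lost without treadmill replicate 2 or catgut 1 replicate 4. Of 32 heat shock proteins and chaperones, 24 were positive and 1 was a higher DEG (3.12%, the share over all genes), Dnajb4, at 18.6 to 41.6 FPKM against 26.3 to 80.6. It was lost without catgut 1 replicate 5, while 9 members were higher DEGs without treadmill replicate 4. Hspa1b, the inducible HSP70, ran from 13.2 to 1051 FPKM in the treadmill group and 127 to 1677 in catgut group 1, so its log2 fold change of 0.98 ± 0.831 was within the spread of the libraries.

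DEGs made up 5.88% of the interferon list, 13% of the chemokine and cytokine list and 8.33% of the collagen and matrix list, against 3.12% of all genes tested. Of 34 interferon response genes, 27 were negative and 2 were lower DEGs, Rsad2 and Gbp4, both under 1 FPKM. Their calls were lost without treadmill replicate 1 or 3 for Rsad2 and without treadmill replicate 4 or catgut 1 replicate 6 for Gbp4. Of 23 chemokines and cytokines, Cxcl12 and Cx3cl1 were lower and Il6r, a receptor chain for interleukin 6, was higher. Without treadmill replicates 2 and 3, 3 members of this list were higher and 1 lower, and without catgut 1 replicate 5 alone 6 were lower. Cxcl12, which guides leukocytes and progenitor cells, was at 16.1 to 32.2 FPKM (median 20.2) against 7.93 to 21.2 (median 15.6), a call lost without any of 4 libraries, treadmill replicates 2 and 3 and catgut 1 replicates 1 and 4. Il6r was at 1.66 to 3.29 (median 2.29) against 2.81 to 4.6 (median 3.81) and was lost without treadmill replicate 5 or 6. Of 36 collagen and matrix genes, Col5a3, Mmp14 and Adamts4 were lower and 0 were higher. Mmp14, a membrane-bound collagenase, was at 2.54 to 10.4 FPKM (median 4.44) against 1.07 to 4.83 (median 2.21).

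Markers of other cells were read beside these genes. All 16 tested macrophage and neutrophil markers were negative, as were 7702 of all 14772 genes tested. Their median log2 fold change was -0.61, or -0.28 without treadmill replicates 2 and 3, and 0 were DEGs. Their summed level was 39.2 to 251 FPKM in the treadmill libraries (median 69.4) and 48.5 to 86.8 in the catgut 1 libraries (median 66.7). The highest treadmill sums, 148 and 251 FPKM, were in replicates 1 and 2, while replicates 3, 5 and 6 lay under every catgut 1 library. Adipose markers summed to 1131 to 2258 against 1150.1 to 2154 FPKM, blood cell markers to 450.3 to 1744 against 370.2 to 1686, and kidney markers to 0.0536 to 19.1 against 0.235 to 8.56, with 0 DEGs in each of these lists. The adipose list had 2 lower DEGs of 13 without treadmill replicates 2 and 3, and 5 without catgut 1 replicate 2. Of the intestine markers 3 were tested and 1 was a lower DEG (33.3%, against 1.99% of all genes tested). This was Apoa4, which liver also expresses in the rat, at 0 to 4.72 FPKM against 0. Apoa4 was no DEG without treadmill replicates 2 and 3. The part of these cells in the immune and matrix values was not tested. Among 21 myogenic and denervation genes, 2 were DEGs (9.52%, against 3.12% of all genes tested). Myf6, the muscle regulatory factor MRF4 of mature fibres, was higher, at 46.6 to 76.2 FPKM (median 53.6) against 75.8 to 128 (median 93.4). Its log2 fold change was 0.70 ± 0.157 (adjusted p = 0.18). Mymx, a fusion factor, was the lower DEG, at 0 to 1.04 against 0 to 0.0845 FPKM.

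**Figure D5:**
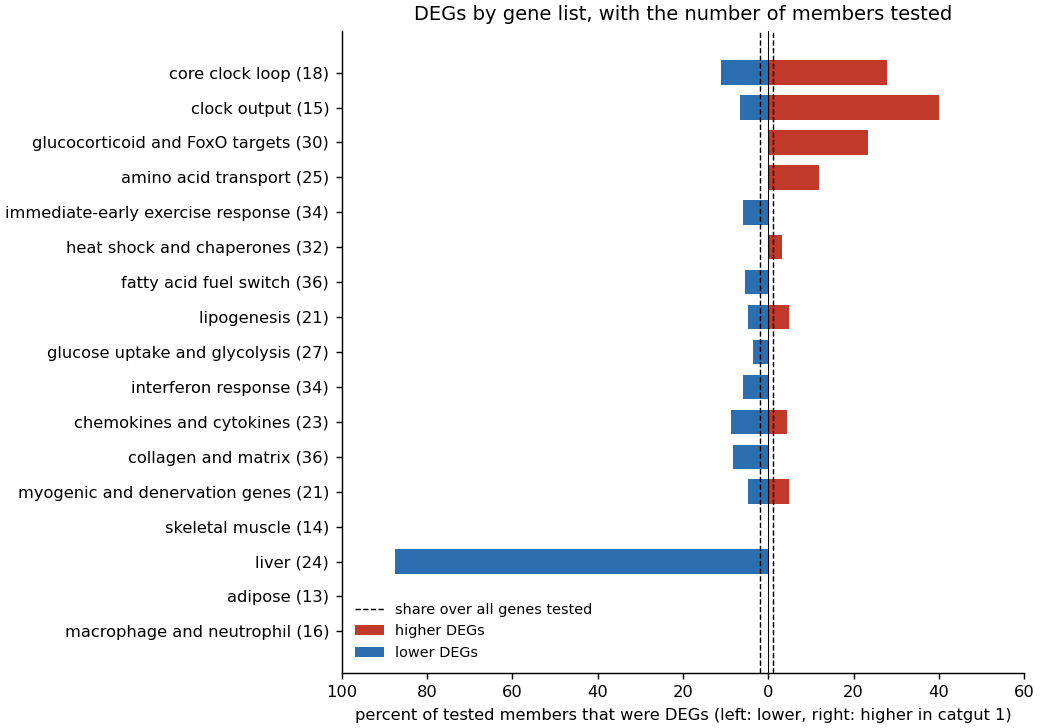
Bars give the percent of tested members of each gene list that were higher DEGs (red, to the right) or lower DEGs (blue, to the left) in catgut group 1, with the number of members tested in parentheses and dashed lines at the shares over all genes tested, 1.13% and 1.99%. The clock, clock output and glucocorticoid lists lie to the right, the liver list reaches 87.5% to the left, and the skeletal muscle, adipose and macrophage and neutrophil lists are at 0.

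The KEGG column of the deposited table names a pathway for 5307 tested genes, of which 190 (3.58%) were DEGs. Among 295 pathways with 10 to 200 tested genes, 7 of the 8 with the largest share of DEGs had more lower than higher calls. Steroid hormone biosynthesis had 7 lower DEGs of 27 (25.9%), among them Cyp2c7, Cyp2c12 and Cyp1a2, cytochrome P450 enzymes of hepatocytes. Staphylococcus aureus infection had 9 lower of 40 (22.5%), fat digestion and absorption 5 of 23 (21.7%; 4 lower, and Dgat2 higher), complement and coagulation cascades 12 lower of 56 (21.4%) and linoleic acid metabolism 4 lower of 19 (21.1%). Cholesterol metabolism had 7 lower of 37 (18.9%) and retinol metabolism 5 lower of 28 (17.9%). Without treadmill replicates 2 and 3, lower DEGs numbered 0 in steroid hormone biosynthesis and linoleic acid metabolism, 1 in retinol metabolism and in fat digestion and absorption, 3 in complement and coagulation and in cholesterol metabolism and 6 in Staphylococcus aureus infection.

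Circadian rhythm, sixth by share, was the exception, with 6 DEGs of 29 (20.7%): Per2, Per3, Per1 and Creb1 higher, Arntl and Npas2 lower. Without treadmill replicates 2 and 3 it had 6 higher and 2 lower DEGs. In the PPAR signaling pathway, which links fatty acid sensing receptors to their lipid-handling targets, 7 of 65 genes were DEGs (10.8%), and all 7 were lower: Apoc3, Fabp1, Apoa5, Apoa2, Apoa1, Scd and Cyp8b1. Of these, 6 are in the liver list. Without the 2 treadmill libraries 4 were lower, Adipoq, Fabp1, Scd and Apoc3, and 1 was higher. The median log2 fold change of the pathway was -0.05.

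Pathways of energy metabolism and protein synthesis and breakdown had few DEGs. Oxidative phosphorylation had 0 DEGs of 126 tested genes, the citrate cycle 0 of 28, fatty acid degradation 0 of 38 and the ribosome 0 of 165, with median log2 fold changes of -0.03, 0.03, 0.09 and -0.02. Glycolysis and gluconeogenesis had 1 higher DEG (Aldoc) and 1 lower DEG (Aldh1a3) of 51. The proteasome, which degrades ubiquitin-tagged proteins, also had 0 DEGs of 44, but 39 of its genes were positive and 17 (38.6%) were higher at an unadjusted p under 0.05, against 3.44% of all genes tested. Changes were small. The log2 fold changes of the 44 genes ran from -0.29 to 0.40 with a median of 0.15, and their lowest adjusted p was 0.149. Without treadmill replicates 2 and 3, the median was 0.17 and 17 genes were again higher. Subunits of 1 complex are not independent of each other.

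Levels in the control and catgut 2 groups are given for the 7 genes with an adjusted p under 0.05, without a test, since both would be set against treadmill libraries that had served to choose the genes. The control mean lay between the treadmill and catgut 1 means in each of the 7. Per2 was at 1.38 to 9.51 FPKM in the control libraries, Tsc22d3 at 53.3 to 127 and Lrrc30 at 2.43 to 22, so that control libraries overlapped both other groups in these genes. Catgut 2 libraries stood on the side of catgut group 1 in most of these genes. Per2 was at 6.68 to 13.1 FPKM there, Usp2 at 26.5 to 49.6, Slc7a2 at 3.77 to 5.95, Lrrc30 at 4.32 to 10.7 and Tmem140 at 9.3 to 15.6, each outside the range of the treadmill libraries. Tsc22d3 ran from 65.5 to 199 and overlapped the treadmill range of 47.6 to 71.4.

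The level of Y-linked transcripts split the libraries of both groups into replicates 1 to 3, where it was low, and 4 to 6. In catgut group 2 it was above 1 FPKM in 2 of 6 libraries, whereas the methods give equal numbers of both sexes. The Arntl values lay apart along this split within the treadmill group, at 8.71 to 11 FPKM in replicates 1 to 3 and 3.88 to 6.1 in replicates 4 to 6. Per2 was at 1.03 to 2.93 against 7.14 to 10.2 FPKM in replicates 1 to 3 of the treadmill and catgut 1 groups, and at 1.49 to 2.99 against 6.69 to 13.4 in replicates 4 to 6. When the Y-linked level entered the fit, the adjusted p was under 0.05 for 16 genes, the 7 genes above among them. The others were Arntl, Dbp, Klf15, Atp8a1, Col5a3, Ggta1, Nrbf2, Relt and Zfp503.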

How the data were processed

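Quadriceps libraries of 24 rats were sequenced, 6 per group, and the 12 of the treadmill and catgut 1 groups were compared. The authors deposited 1 table of genes with estimated counts and FPKM values per library. The submitters' processing notes name HISAT2 2.0 and StringTie 1.3.0, and the genome build is not given in the sources used here. The deposited estimated counts are whole numbers of which 4 and 8 are the commonest above 0, as if worked back from coverage, so 12 counts were taken as 3 fragments and as the limit of detection. They were tested as deposited. FPKM values, which the authors normalized for length and depth, were used for levels, ratios and the filter (mean of at least 0.1). Coordinates are those of the deposited table. Columns with a value for a library numbered 48, and 0 of them were left unused.

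Genes were tested with edgeR's quasi-likelihood test (version 4.0.16, TMM scaling, R 4.3.3), with Benjamini-Hochberg adjustment over all genes tested. All p-values printed are from that fit unless an exact permutation test is named, and ± gives the SE of the log2 fold change. Alternatives used limma 3.58.1, DESeq2 1.42.0, other filters, pseudocounts (1 and 0.1) and scaling, covariates, and libraries left out. Named genes were those with an adjusted p under 0.05, the 12 higher and 12 lower DEGs of smallest p, genes that the study named, list members and the 3 genes of highest FPKM. The members and lists were chosen with earlier results of these data known. Libraries share replicate numbers but no stated pairing, and the p-values measure the spread between these libraries. Deviations of same-numbered libraries correlated at -0.21 to 0.10. Promoters were RefSeq sequences of GRCr8, matched by symbol.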

Additional observations from a re-analysis of the deposited data

Results flagged for a closer look

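Among 82 groups of 6 libraries examined, 12 held a library far from the other 5. The groups are not independent, since the summed liver markers include Alb, Fabp1, Ttr and Apoc3, so no rate by chance is set beside this count. Treadmill replicate 3 accounted for 5 of the 12. Alb was at 226 FPKM there (next highest 14.3), Fabp1 at 35.1 (2.35), Ttr at 23.1 (2.31), Apoc3 at 18.6 (1.82), and the summed liver markers at 522 (66.8). Treadmill replicate 2 accounted for 3, with Ifrd1 at 30.6 FPKM (next highest 21), Klf15 at 22.8 (15.1) and the summed adipose markers at 2258 (1550.0). Zfp503 was at 7.03 FPKM in treadmill replicate 4, against 4.15 in the next. In catgut group 1, Apoc3 was at 0.0978 FPKM in replicate 2 and 0 in the others, Atp8a1 at 9.45 in replicate 3 (next 6.72) and Cep85l at 4.68 in replicate 5 (next 2.78).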

How the results depend on the processing

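The count of 7 genes with an adjusted p under 0.05 was 7 with counts divided by 4 or a minimum mean of 1 FPKM, 9 with median-ratio scaling or robust fitting, and 6 without a filter. It was 140 with DESeq2, 16 with the Y-linked level and 1 with the liver level as a covariate, 4 in 1 fit over all 4 groups, 4 and 3 with limma on log2(FPKM + 0.1) and log2(FPKM + 1), 2 without treadmill replicates 2 and 3 together, and 2 to 6 with 1 library left out. The exact permutation test, whose smallest possible p is 0.00216, left 0 after adjustment, with 838 at an unadjusted p under 0.05. With the replicate block it was 2 (Col5a3 and Per2). No sample of the treadmill group correlated best with its own number. DEGs numbered 205 (103 higher, 102 lower) at a minimum mean of 1 FPKM and 928 (317 and 611) without a filter. Higher DEGs were 275 without treadmill replicates 2 and 3 and 139 to 263 with 1 library left out. Lower DEGs were 174 without those replicates, 170 with limma on log2(FPKM + 1), 188 with the liver covariate and 172 by the exact permutation test. The cause was not tested. Over 31 named genes and 26 alternatives, 683 values kept direction and side of the threshold, 83 lost and 38 gained the threshold, and 0 changed direction. The kept values include some with no adjusted p, as for Alb, Apoc3 and Fabp1 with DESeq2. Of the named genes, only 7 were under 0.05 in the reported fit, so most could not lose the threshold. The adjusted p was under 0.05 in 23 alternatives for Slc7a2, 21 for Tsc22d3 and Per2, 10 for Usp2, 9 for Lrrc30, 8 for Tmem140 and 7 for Cry2.

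With 6 libraries per group and totals of at least 45945938 counts, low genes were limited by the 12-count limit: in 87 lower DEGs every catgut 1 library was at or under it, and in 21 higher DEGs every treadmill library was.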

Other observations

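Outside the lists and the genes named by rule, 28 genes were higher and 9 lower in catgut group 1 without overlap between the libraries, and those given here were chosen after their values were seen. Dusp7, a phosphatase that switches off ERK, was at 4.86 to 9.88 FPKM in the treadmill libraries and 11.3 to 18.9 in the catgut 1 libraries (log2 fold change 0.91 ± 0.19, adjusted p = 0.149). Nqo1, Osgin1 and Txnrd3 have parts in oxidant defence, but no list of such genes was counted, so their share is not known. Nqo1, a quinone reductase, was at 6.05 to 8.67 against 8.85 to 12.2 FPKM (adjusted p = 0.257). Osgin1 was at 4.99 to 9.43 against 12 to 13.9 (adjusted p = 0.18). Txnrd3, a thioredoxin reductase, was at 2.56 to 3.11 against 3.34 to 4.78 (adjusted p = 0.37). Among the lower genes, Rara, a retinoic acid receptor, was at 4.7 to 6.49 against 3.47 to 4.57 FPKM (-0.46 ± 0.0914, adjusted p = 0.126), and Alpk2, an alpha kinase, at 11.7 to 16.6 against 7.82 to 11.6.

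Of the proteasome genes, Psma5, a subunit of the catalytic core, was at 53.3 to 82.3 FPKM against 69.7 to 98.2 (0.40 ± 0.0841, adjusted p = 0.149), and Psmc2, an ATPase of the regulatory cap, at 86.3 to 122 against 117 to 134 (0.25 ± 0.0699). Over 24 other fits, 14 to 19 of the 44 genes were higher at an unadjusted p under 0.05, fewest with the liver level as a covariate, and with the replicate block, which is not among those fits, 9 were. Dbp and Sphk2 lie 126 bases apart in the table on opposite strands, and Dbp was higher while Sphk2 was lower. How the counting treated strand is not given in the sources used here.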
